A study of Mus musculus with 7 samples.

Results

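Complex I, the NADH:ubiquinone oxidoreductase of mitochondria, is described here through the genes whose symbol begins with Nduf, taken by that symbol rule from the deposited expression table. The rule found 45 genes among 24319 in all: 36 subunits (Ndufa1 to Ndufa13, Ndufb, Ndufc, Ndufs and Ndufv genes), 7 assembly factors (Ndufaf1 to Ndufaf7) and 2 others, Ndufab1 and Ndufa4l2. Of these, 44 passed the filter on low values, an FPKM (sequenced fragments scaled by transcript length and library size) of at least 1 in 2 or more libraries. Ndufa4l2 did not pass and was at 0.72 and 0 FPKM in CROC+K+M, 1.57, 0 and 0 in CROC+K, and 0.90 and 0.44 in FOC+K. The mitochondrially encoded subunits were not analysed here.

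RNA was sequenced from pools of 50 to 100 mouse nuclear transfer embryos, in which cumulus cell nuclei of wild type B6D2F1 mice were placed in oocytes without their own chromosomes. Embryos of all 3 groups had received mRNA of the histone demethylase gene Kdm4a. CROC+K+M embryos (2 libraries) came from vitrified and warmed oocytes and were exposed to 10 µM melatonin, CROC+K embryos (3 libraries) came from vitrified and warmed oocytes without melatonin, and FOC+K embryos (2 libraries) came from fresh oocytes without melatonin. Every library is labelled 2-cell, while a treatment text shared by all libraries also mentions blastocysts; a vehicle is mentioned for the series and not for single libraries. The labels speak of 2 to 3 biological replicates of a group and do not say whether equal replicate numbers share a day, a batch or oocyte donors.

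Complex I takes electrons from NADH at a flavin in its matrix arm, passes them along iron-sulphur clusters to ubiquinone, and pumps protons through its membrane arm. A conserved core of subunits carries out the reaction, accessory subunits surround and stabilise it, and assembly factors join the modules without remaining in the finished complex. The oocyte supplies the mitochondria of the early embryo, in nuclear transfer as in fertilisation. The 45 genes lie on 16 chromosomes, with Ndufa1 and Ndufb11 on X. Processed or related copies of 6 of them (Ndufa11, Ndufa12, Ndufab1, Ndufb4, Ndufs5 and Ndufs6) are named in the reference tables, and the values of these 6 are therefore uncertain.

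Some libraries stood apart from their groups, which bears on all values that follow. CROC+K+M replicate 1 correlated with each other library at a Pearson r of 0.851 to 0.875 over the genes tested. In it 13 of 14 trophectoderm marker genes were at their highest, with a summed FPKM of 27560, against 61.3 to 140.8 in the other 6 libraries. Without Fabp3 the sum was 3154 there, against 57.7 to 136.5 in the other 6. Cdx2, a defining trophectoderm factor, was at 6.97 FPKM there and is listed at 0 in the other 6. Oocyte markers summed to 4317 and 4501 FPKM in CROC+K+M, 5564 to 7110 in CROC+K, and 7053 and 6576 in FOC+K. Most of each sum was Oosp1, at 3072 and 3193 FPKM in CROC+K+M, 3548 to 5316 in CROC+K, and 5270 and 4815 in FOC+K. All 12 oocyte markers had an FPKM of at least 1 in every library, so maternal transcripts were present in all 7 libraries. Markers of the transient 2-cell stage summed to 766.5 and 284.2 FPKM in CROC+K+M, against 228.1, 931.3 and 1329 in CROC+K. In FOC+K they summed to 648.9 and 296.5, so the lowest sum was in CROC+K replicate 1. Of 10 inner cell mass and primitive endoderm markers, 4 were at their highest in CROC+K+M replicate 1. Their sums were 41.3 and 23.6 FPKM in CROC+K+M, 25.3, 36.1 and 31.8 in CROC+K, and 34.8 and 20.7 in FOC+K. Cumulus cell markers summed to at most 24.9. The ribosomal RNA precursor Rn45s had an FPKM of 224.1 and 175.4 in CROC+K+M, 2114, 265.7 and 237.2 in CROC+K, and 1183 and 1047 in FOC+K, so CROC+K replicate 1 was at the level of the FOC+K libraries. The injected Kdm4a was at 2797 and 688.7 FPKM in CROC+K+M, 497.4, 4051 and 4949 in CROC+K, and 2014 and 816.1 in FOC+K, with overlapping groups.

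Transcript levels of the subunits were uneven. FPKM divides by transcript length, so levels can be set side by side between genes. Ndufa4 was the highest subunit gene in every library, at 2541 and 2013 FPKM in CROC+K+M, 1469, 1493 and 1341 in CROC+K, and 975.1 and 1148 in FOC+K. Its product was first assigned to complex I and is now counted with complex IV. Ndufa4 made up 10.4% of the summed subunit FPKM in CROC+K+M replicate 1 and 29.1% to 31.9% in the other 6 libraries. Next outside CROC+K+M replicate 1 came Ndufb6, at 1577 and 768.6 FPKM in CROC+K+M, 594.8, 752.6 and 756.1 in CROC+K, and 492.4 and 453.2 in FOC+K. Ndufb6 encodes an accessory subunit of the membrane arm. By the median over the 6 libraries other than CROC+K+M replicate 1, the core gene Ndufv1 was lowest, at 3.61 FPKM. Next came core gene Ndufs1 (4.96) and accessory gene Ndufs4 (6.40), while core genes ranged up to 59.8 (Ndufv2). Over the 36 subunits the Spearman correlation between this median level and coding length was -0.36, a description over genes that share the same libraries.

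**Figure D1:**
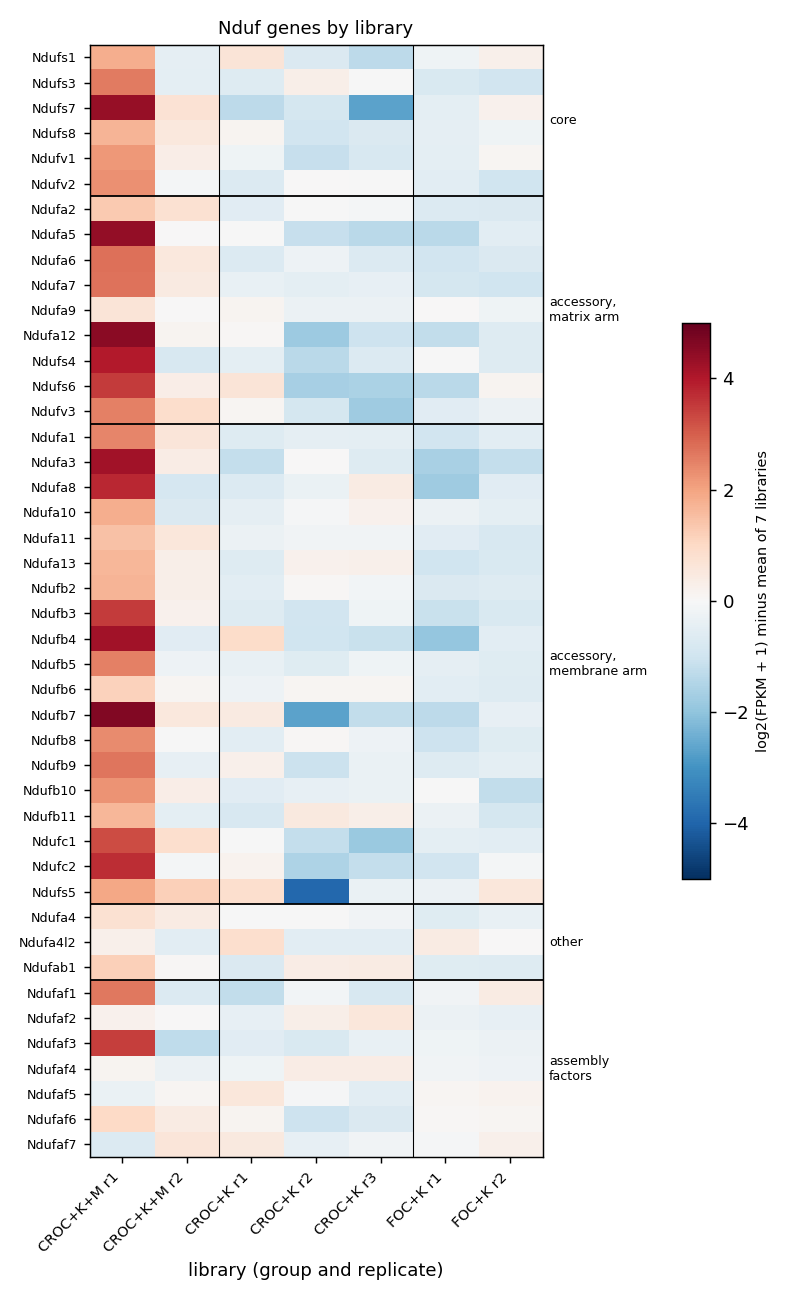
Levels of 44 Nduf genes (vertical axis, grouped by class) in the 7 libraries (horizontal axis), as log2(FPKM + 1) minus each gene's mean over the libraries; red is above and blue below that mean. The subunits shown are red in CROC+K+M replicate 1, while the assembly factors show mixed colours.

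Promoters of the members were searched for short motifs of factors known to control respiratory chain genes, in the window from 250 bases before to 50 bases after the gene start (RefSeq, GRCm38.p6). A window was found for 39 of the 45 members, 32 of them subunits and 6 of them assembly factors. NRF1, a factor of nuclear genes for mitochondria, was searched as GCGCANGCG on both strands, and 25.0% of the subunit genes and 33.3% of the assembly factor genes held it, against 7.03% of all 27025 genes with a window. The YY1 motif AAGATGGCG was in 15.6% of subunit genes, 0% of assembly factor genes and 1.64% of all genes. For the ETS family motif CCGGAAG the shares were 12.5%, 16.7% and 9.93%, and for the ERR motif AAGGTCA they were 9.38%, 0% and 5.38%. GGGCGG, bound by SP1, was in 43.8% of subunit genes, 83.3% of assembly factor genes and 38.2% of all genes, and CCAAT in 31.2%, 50.0% and 41.1%. All genes with a window include noncoding genes, and a match shows only that these letters are present.

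A set of 4 promoters is printed because each holds an NRF1 match in the 150 bases before the start while the genes differ in level among the libraries, as given further on. Ndufa11 (chr17:56717612-56717761, plus strand) and Ndufa8 (chr2:36049339-36049488, minus strand) encode accessory subunits of the membrane arm, Ndufs6 (chr13:73328483-73328632, minus strand) encodes one of the matrix arm, and Ndufaf4 (chr4:24897933-24898082, plus strand) encodes an assembly factor. All are read 5′ to 3′ on the gene's strand and end at the base before the start. Capitals mark matches to the NRF1 motif on either strand, which overlap in Ndufa11 and Ndufaf4.
Ndufa11: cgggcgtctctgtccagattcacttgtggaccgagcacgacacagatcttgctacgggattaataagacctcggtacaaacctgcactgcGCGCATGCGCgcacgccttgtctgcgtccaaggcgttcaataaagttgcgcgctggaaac
Ndufa8: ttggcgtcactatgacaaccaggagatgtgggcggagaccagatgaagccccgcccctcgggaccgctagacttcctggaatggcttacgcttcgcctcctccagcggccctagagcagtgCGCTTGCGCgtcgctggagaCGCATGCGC
Ndufs6: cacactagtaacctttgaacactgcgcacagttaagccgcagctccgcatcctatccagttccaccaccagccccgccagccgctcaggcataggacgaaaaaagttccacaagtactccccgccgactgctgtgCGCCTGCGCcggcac
Ndufaf4: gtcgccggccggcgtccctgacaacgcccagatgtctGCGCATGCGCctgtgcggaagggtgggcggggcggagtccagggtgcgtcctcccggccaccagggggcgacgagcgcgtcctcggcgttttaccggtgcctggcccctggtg

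Melatonin embryos from cryopreserved oocytes (CROC+K+M) were first set against those without melatonin (CROC+K). All 36 subunit genes were higher on average in CROC+K+M, against 54.1% of all 12272 genes tested. Their log2 changes on the log2(FPKM + 1) scale ran from 0.47 to 4.16 with a median of 1.70, against a median of 0.06 over all genes. By class, the median was 1.32 for the 7 core subunits, 2.43 for the 9 accessory subunits of the matrix arm and 1.67 for the 19 of the membrane arm. In 22 of the 36 (61.1%) both CROC+K+M libraries lay above all CROC+K libraries, against 12.3% of all genes. With FPKM sums made equal all 36 subunits were still higher, with a median of 1.45 where that of all genes was -0.14. In bulk RNA of whole embryos, fewer cells of a type and less RNA per cell cannot be told apart.

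No single gene passed the threshold of 0.05 on the adjusted p (limma, Benjamini-Hochberg over 12272 genes), where 0 genes (0.0%) were called and 1281 had an unadjusted p under 0.05. The adjusted p of the subunits was between 0.408 and 0.764. At an unadjusted p under 0.05, 21 of 36 subunits (58.3%) were higher and 0 lower, against 6.69% of all genes that were higher. The differences were larger with CROC+K+M replicate 1 than without it. With that library left out, replicate 2 stands alone and is assumed to vary like the other libraries. Then 30 of 36 subunits were higher than in CROC+K, against 52.3% of all genes, with a median log2 change of 0.79 against 0.03. At an unadjusted p under 0.05 there were then 9 higher subunits (25.0%), against 4.01% of all genes, among them Ndufs7, Ndufa1, Ndufa2, Ndufa6, Ndufa7, Ndufa11, Ndufc1 and Ndufv3. CROC+K+M replicate 2 lay above all 3 CROC+K libraries in 22 subunits (61.1%), against 25.9% of all genes, and below all 3 in 2 (5.56%), against 23.2%.

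CROC+K+M replicate 1 was the highest of the 7 libraries in 35 of 36 subunits (97.2%), against 26.7% of all genes. In 30 of them it was over 2-fold above the highest other library, and the median of this fold was 4.76, up to 21.0. No share of all genes was taken for this 2-fold count, and this library had the largest FPKM total of the 7. The subunits made up 2.40% and 0.927% of the summed FPKM in the CROC+K+M libraries, against 0.8%, 0.593% and 0.547% in CROC+K and 0.573% and 0.660% in FOC+K. Both CROC+K+M shares were thus above the 5 others. Assembly factors made up 0.0466% and 0.0494% in CROC+K+M, 0.0545%, 0.0542% and 0.0598% in CROC+K, and 0.0534% and 0.0553% in FOC+K, with both CROC+K+M libraries lowest. Ndufaf2 and Ndufaf4 supplied most of the assembly factor sum in every library, so these shares mainly describe those genes. Ndufaf1, Ndufaf3 and Ndufaf6 had their highest FPKM in CROC+K+M replicate 1, and the other assembly factors did not. As summed FPKM, which is not divided by the library total, assembly factors were at 474.3 and 358.6 in CROC+K+M, against 313.5, 432.2 and 487.6 in CROC+K and 312.5 and 305.3 in FOC+K. On that scale CROC+K+M overlapped CROC+K and lay above FOC+K, and the totals were 1017995 and 726297 in CROC+K+M, against 575457, 797689 and 814958 in CROC+K and 585039 and 552356 in FOC+K. The part of the trophectoderm marker genes in the level of CROC+K+M replicate 1 was not tested. In CROC+K+M replicate 2 these markers summed to 65.0 FPKM, within the range of the CROC+K and FOC+K libraries, and Cdx2 is listed at 0.

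**Figure D2:**
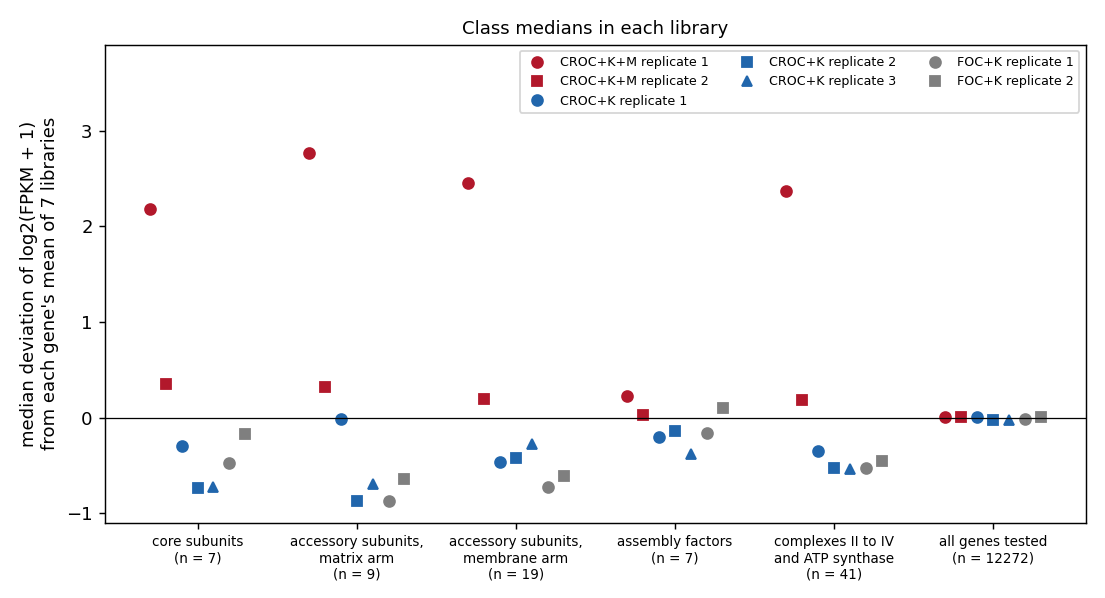
Median deviation of log2(FPKM + 1) from each gene's mean over the 7 libraries (vertical axis) for each class of genes (horizontal axis), with 1 point per library. The 3 subunit classes lie at 2.18 to 2.77 in CROC+K+M replicate 1 and 0.20 to 0.35 in replicate 2, against -0.87 to -0.02 in CROC+K and -0.88 to -0.18 in FOC+K, while all genes lie near 0.

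Core subunits carry the flavin, the iron-sulphur clusters and the ubiquinone site. Ndufs7, whose product holds the last cluster before ubiquinone, was at 277.8 and 21.7 FPKM in CROC+K+M, against 4.55, 6.41 and 1.14 in CROC+K and 8.83 and 14.9 in FOC+K. It had the largest log2 change among the members, 4.16 ± 1.0 (SE; adjusted p = 0.408), or 2.35 ± 0.71 when CROC+K+M replicate 1 was left out. Both CROC+K+M libraries were above all others, and all CROC+K libraries were below both FOC+K libraries.

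Ndufs8, which encodes an iron-sulphur subunit next to the ubiquinone site, was at 207.9 and 90.7 FPKM in CROC+K+M, against 69.9, 32.2 and 37.6 in CROC+K and 45.3 and 53.5 in FOC+K. Its log2 change was 1.62 ± 0.46 (SE; adjusted p = 0.408), or 1.03 ± 0.46 when CROC+K+M replicate 1 was left out. Ndufv1, which encodes the flavin and NADH binding subunit, was at 25.5 and 6.43 FPKM in CROC+K+M, against 4.06, 1.62 and 2.36 in CROC+K and 3.17 and 5.33 in FOC+K. Both of these genes had their CROC+K+M libraries above all others. Ndufv1 had a log2 change of 1.98 ± 0.58 (SE; adjusted p = 0.408), or 1.07 ± 0.52 without CROC+K+M replicate 1.

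A further 3 core genes were high in CROC+K+M replicate 1, with replicate 2 among the other libraries. Ndufs3 was at 226.6 and 25.6 FPKM in CROC+K+M, against 22.8, 45.04 and 36.2 in CROC+K and 21.0 and 18.4 in FOC+K. Ndufv2, for an iron-sulphur partner of Ndufv1, was at 370.2 and 68.4 FPKM in CROC+K+M, against 45.9, 75.4 and 73.0 in CROC+K and 51.2 and 37.0 in FOC+K. Ndufs1, for the largest iron-sulphur subunit, was at 25.6 and 4.54 FPKM in CROC+K+M, against 10.8, 3.48 and 2.00 in CROC+K and 5.37 and 7.93 in FOC+K. Their log2 changes of 1.18 ± 0.80 (Ndufs3), 1.32 ± 0.65 (Ndufv2) and 1.17 ± 0.78 (Ndufs1) became -0.37, 0.11 and 0.03 without CROC+K+M replicate 1. In replicate 2, 4 of the 7 core genes lay above all CROC+K libraries.

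Accessory subunits of the matrix arm had the highest class median with both CROC+K+M libraries, while without replicate 1 the medians were 1.03 for core, 1.01 for matrix arm and 0.52 for membrane arm subunits. Ndufa2, a small thioredoxin-like subunit, was at 732.2 and 506.3 FPKM in CROC+K+M, against 197.3, 289.7 and 275.3 in CROC+K and 185.2 and 176.3 in FOC+K. Its log2 change of 1.28 ± 0.29 (SE) had the smallest unadjusted p of all members, 0.00276 (adjusted p = 0.408), or 1.01 ± 0.33 when CROC+K+M replicate 1 was left out. Its CROC+K+M libraries differed by 1.45-fold and both lay above the 5 others. Ndufv3, an accessory subunit beside the flavin site, was at 689.6 and 225.4 FPKM in CROC+K+M, against 130.03, 65.3 and 34.7 in CROC+K and 80.5 and 98.8 in FOC+K. Ndufa6, an LYR motif subunit that binds the acyl carrier protein, was at 1021 and 218.0 FPKM in CROC+K+M, against 93.0, 125.7 and 91.3 in CROC+K and 75.3 and 89.7 in FOC+K. In both genes each CROC+K+M library was above the 5 others, with log2 changes of 2.55 ± 0.63 (Ndufv3) and 2.2 ± 0.58 (Ndufa6), or 1.74 ± 0.65 and 1.08 ± 0.32 without CROC+K+M replicate 1.

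Ndufa7, another small subunit of this arm, behaved alike, at 1845 and 381.1 FPKM in CROC+K+M, against 213.1, 198.7 and 211.2 in CROC+K and 151.6 and 139.1 in FOC+K. Ndufa9, which lies near the ubiquinone site, had the smallest change of the class, at 215.9 and 138.5 FPKM in CROC+K+M, against 153.0, 112.5 and 111.4 in CROC+K and 139.2 and 118.9 in FOC+K. There CROC+K+M replicate 2 lay within the range of the others, and the log2 change was 0.47 ± 0.30 (SE; adjusted p = 0.6), or 0.16 ± 0.32 without CROC+K+M replicate 1. Ndufs4, loss of which causes Leigh syndrome in humans and a like disease in mice, was at 183.0 and 5.76 FPKM in CROC+K+M, against 7.49, 3.56 and 6.29 in CROC+K and 10.7 and 6.504 in FOC+K. Its replicate 2 value was within the range of CROC+K, and its log2 change of 2.43 ± 1.18 (SE) became 0.04 without replicate 1. Ndufs6, of the printed promoter set, was at 1283 and 142.1 FPKM in CROC+K+M, against 177.9, 35.1 and 37.8 in CROC+K and 44.5 and 124.9 in FOC+K. CROC+K replicate 1 lay above CROC+K+M replicate 2 in this gene. Ndufa12 and Ndufa5 had the largest folds of CROC+K+M replicate 1 over the highest other library, 20.9 and 21.0.

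Most accessory subunits belong to the membrane arm. Ndufa1, an X-linked subunit needed for assembly of the complex, was at 811.7 and 224.4 FPKM in CROC+K+M, against 95.3, 108.1 and 105.0 in CROC+K and 74.5 and 102.3 in FOC+K. CROC+K libraries were close together and both CROC+K+M libraries lay above them, with a log2 change of 2.05 ± 0.50 (SE; adjusted p = 0.408), or 1.12 ± 0.31 when CROC+K+M replicate 1 was left out. Ndufc1 was at 1400 and 260.6 FPKM in CROC+K+M, against 143.3, 62.9 and 38.7 in CROC+K and 101.8 and 98.8 in FOC+K. Its log2 change was 3.08 ± 0.75 (SE; adjusted p = 0.408), or 1.87 ± 0.64 when that library was left out. Ndufa11, whose product sits where the membrane arm meets complex III in the supercomplex, was at 168.7 and 89.0 FPKM in CROC+K+M, against 48.0, 52.1 and 52.6 in CROC+K and 40.2 and 33.8 in FOC+K. In FPKM not divided by the library totals, its libraries lay in the order CROC+K+M, CROC+K, FOC+K without overlap. The same order was seen in Ndufa2, Ndufa4, Ndufa6, Ndufa7, Ndufa13, Ndufb2 and Ndufb6. The order was not taken with FPKM sums made equal, and the step from CROC+K to FOC+K may not hold on that scale. The log2 change of Ndufa11 between CROC+K+M and CROC+K was 1.25 ± 0.32 (SE; adjusted p = 0.408), or 0.80 ± 0.29 when CROC+K+M replicate 1 was left out.

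In 5 membrane arm genes the direction rested on CROC+K+M replicate 1. Ndufa8 was at 391.9 and 15.0 FPKM in CROC+K+M, against 17.0, 21.7 and 37.0 in CROC+K and 7.46 and 18.1 in FOC+K. Ndufa10 was at 138.2 and 23.1 FPKM in CROC+K+M, against 27.8, 37.3 and 44.5 in CROC+K and 31.2 and 27.5 in FOC+K. In both, CROC+K+M replicate 2 was below all CROC+K libraries, and the log2 changes of 1.67 ± 1.17 (Ndufa8) and 0.65 ± 0.66 (Ndufa10) became -0.64 and -0.62 without replicate 1. Ndufb11, the other X-linked member, was at 448.8 and 102.3 FPKM in CROC+K+M, against 80.8, 200.04 and 175.9 in CROC+K and 115.5 and 77.9 in FOC+K. Ndufb4 was at 354.9 and 12.04 FPKM in CROC+K+M, against 35.4, 8.70 and 7.78 in CROC+K and 4.04 and 12.4 in FOC+K. For Ndufb9 the FPKM was 722.9 and 84.4 in CROC+K+M, against 135.5, 52.9 and 89.2 in CROC+K and 71.3 and 79.6 in FOC+K. In these 3 genes replicate 2 lay within the CROC+K range. Their changes without replicate 1 were -0.47 (Ndufb11), -0.16 (Ndufb4) and -0.03 (Ndufb9), against 0.59 ± 0.65, 2.22 ± 1.31 and 1.51 ± 0.82 with both libraries. Ndufs5, an intermembrane space subunit, was at 56.2 and 33.5 FPKM in CROC+K+M, against 26.1, 0.0011 and 11.0 in CROC+K and 11.3 and 21.4 in FOC+K, so that 1 CROC+K library is listed near 0.

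**Figure D3:**
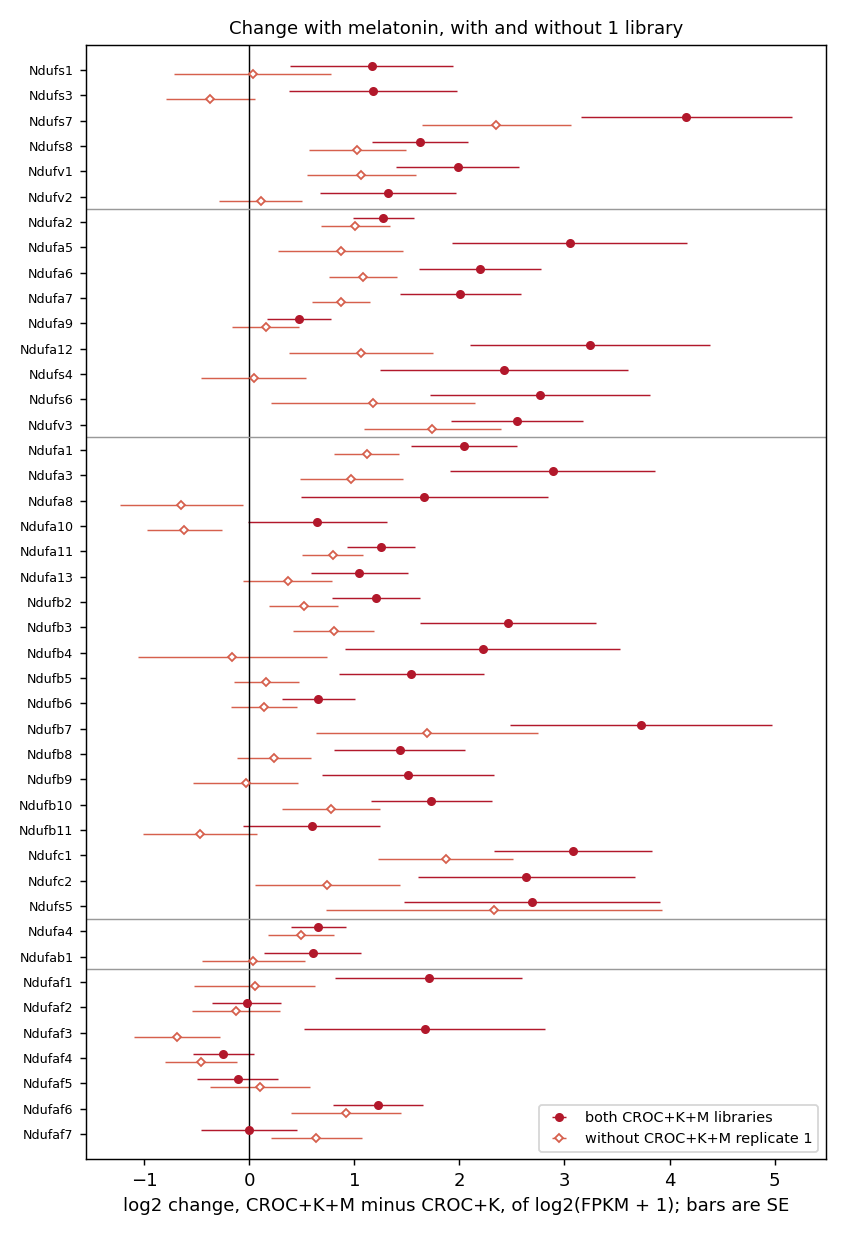
Log2 change of 43 Nduf genes (vertical axis) between CROC+K+M and CROC+K, as the difference of log2(FPKM + 1) (horizontal axis, bars are limma's SE), with both CROC+K+M libraries (filled circles) and without CROC+K+M replicate 1 (open diamonds). All 35 subunits shown lie right of 0 with both libraries and 29 of them without replicate 1, and the assembly factors lie on both sides.

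The 7 assembly factor genes lay on both sides of 0. On the log2(FPKM + 1) scale means were higher in CROC+K+M for 3 (42.9%, against 54.1% of all genes) and lower for 4, with a median log2 change of -0.0011. That median is the value of Ndufaf7 (± 0.46 SE), whose mean FPKM was 23.1 in CROC+K+M and 21.8 in CROC+K. For 1 of the 7 genes, Ndufaf6 (14.3%, against 6.69% of all genes), the mean was higher at an unadjusted p under 0.05. Without CROC+K+M replicate 1, 4 were higher, the median was 0.05, and 0 had an unadjusted p under 0.05. Their median was not tested against that of the subunits. Ndufaf2, a paralogue of Ndufa12 that acts late in assembly, was at 232.4 and 201.9 FPKM in CROC+K+M, against 149.3, 241.3 and 296.1 in CROC+K and 160.9 and 150.7 in FOC+K. Ndufaf4 was at 134.8 and 99.8 FPKM in CROC+K+M, against 104.7, 157.7 and 157.7 in CROC+K and 106.3 and 102.2 in FOC+K. Its product works in a pair with that of Ndufaf3. In both Ndufaf2 and Ndufaf4 the highest libraries were CROC+K replicates 2 and 3, and the log2 changes were -0.02 ± 0.33 and -0.24 ± 0.29 (SE), or -0.12 ± 0.41 and -0.46 ± 0.34 without CROC+K+M replicate 1.

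Ndufaf3 itself was at 56.7 and 1.20 FPKM in CROC+K+M, against 2.54, 2.11 and 3.01 in CROC+K and 3.45 and 3.28 in FOC+K. One CROC+K+M library was thus the highest and the other the lowest, and the log2 change of 1.67 ± 1.15 (SE) became -0.69 ± 0.41 without replicate 1. Ndufaf1, a member of an intermediate assembly complex of the membrane arm, was at 13.7 and 0.48 FPKM in CROC+K+M, against 0, 1.15 and 0.35 in CROC+K and 1.12 and 2.17 in FOC+K. Ndufaf6 was at 14.4 and 9.10 FPKM in CROC+K+M, against 7.525, 2.78 and 3.71 in CROC+K and 7.07 and 7.23 in FOC+K. It was the 1 assembly factor with both CROC+K+M libraries above the 5 others. Both lay above all CROC+K libraries in 1 of 7 assembly factors (14.3%), a share near the 12.3% of all genes. The log2 change of Ndufaf6 was 1.23 ± 0.43 (SE; adjusted p = 0.426), or 0.92 ± 0.52 when replicate 1 was left out.

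Ndufaf5 and Ndufaf7 encode enzymes. Ndufaf5, whose product in human cells hydroxylates that of Ndufs7, was at 9.33 and 12.9 FPKM in CROC+K+M, against 18.5, 11.4 and 7.96 in CROC+K and 12.9 and 13.8 in FOC+K. Ndufaf7, a methyltransferase gene, was at 13.1 and 33.2 FPKM in CROC+K+M, against 30.9, 15.8 and 18.8 in CROC+K and 20.7 and 25.9 in FOC+K. Groups overlapped in both genes. Ndufaf7 was lowest in CROC+K+M replicate 1 and highest in replicate 2.

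**Figure D4:**
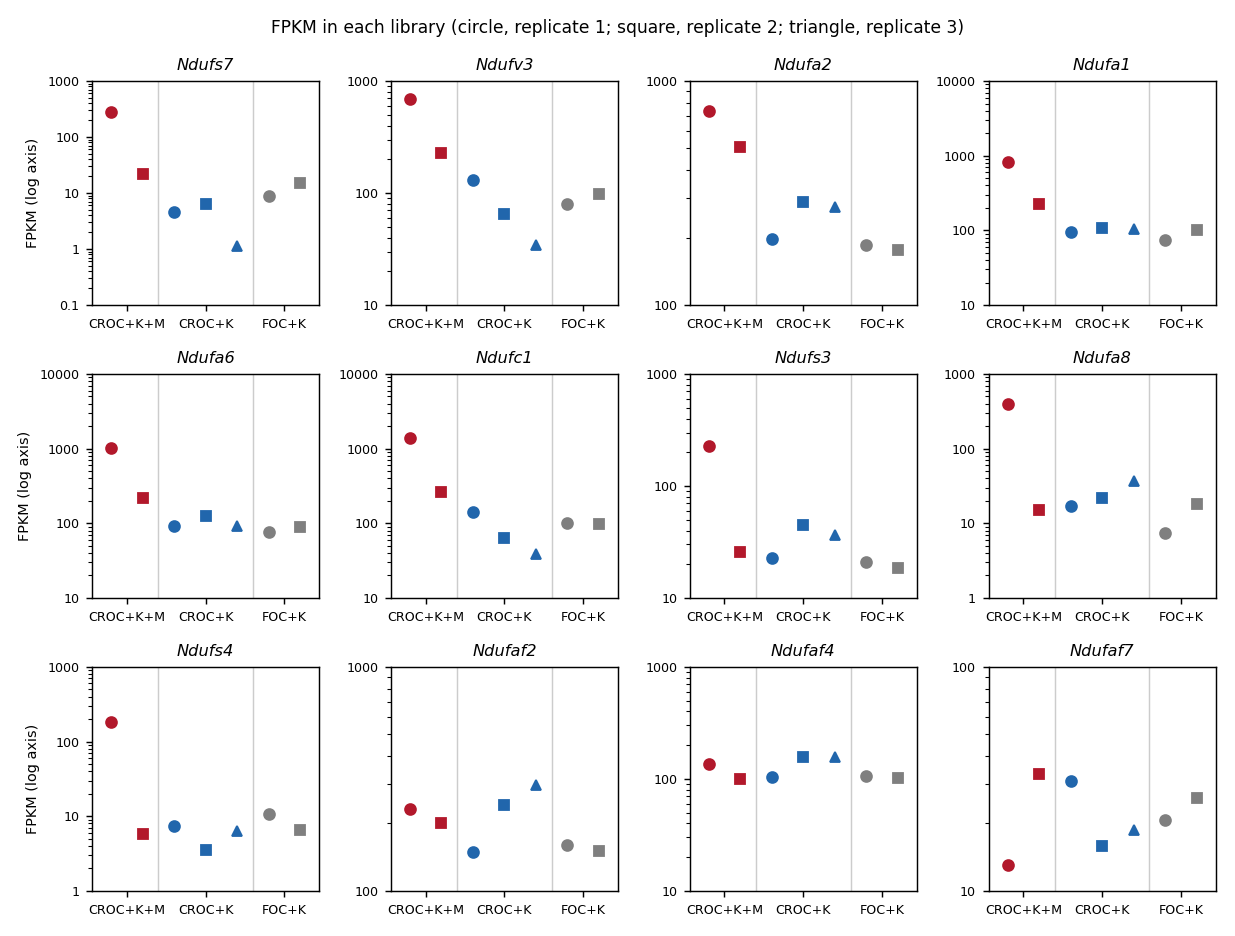
FPKM on log axes (vertical) of 9 subunit and 3 assembly factor genes in each library, with CROC+K+M, CROC+K and FOC+K from left to right (horizontal). In Ndufs7, Ndufv3, Ndufa2, Ndufa1, Ndufa6 and Ndufc1 both CROC+K+M libraries lie above the others, in Ndufs3, Ndufa8 and Ndufs4 only replicate 1 does, and in Ndufaf2 and Ndufaf4 neither does.

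Ndufab1, the mitochondrial acyl carrier protein that is both a complex I subunit and a part of fatty acid synthesis, was at 754.8 and 344.4 FPKM in CROC+K+M, against 198.4, 433.6 and 436.3 in CROC+K and 218.1 and 209.9 in FOC+K. CROC+K+M replicate 2 lay within the CROC+K range, and the log2 change was 0.61 ± 0.46 (SE; adjusted p = 0.661), or 0.04 ± 0.49 when CROC+K+M replicate 1 was left out. The list of assembly genes that carry other names held 10 genes in the data. It left out the gene now called Ndufaf8 and included Lyrm4, which is not particular to complex I. Of these 10 genes, 9 (90.0%) had higher means in CROC+K+M, against 54.1% of all genes. At an unadjusted p under 0.05, 3 of the 10 genes (30.0%) were higher, against 6.69%. Their median log2 change was 0.58, or 0.61 without replicate 1, where 0 had an unadjusted p under 0.05. With both libraries the 3 were Acad9 (2.21 ± 0.61 SE), Tmem126a (2.49 ± 0.98) and Tmem126b (2.76 ± 1.10), with 1.60, 0.94 and 1.63 in that order when replicate 1 was left out. Acad9 and Tmem126b act with Ndufaf1 in a membrane arm intermediate. The gene now called Ndufaf8 appears under its older symbol 1810043H04Rik, at 159.4 and 62.7 FPKM in CROC+K+M, against 20.6, 31.9 and 32.2 in CROC+K and 33.5 and 26.5 in FOC+K. It lay above the 5 other libraries in both, with a log2 change of 1.82 ± 0.43 (SE; adjusted p = 0.408), or 1.15 without replicate 1.

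Other nuclear genes of the respiratory chain were higher on average too. Of 41 genes of complexes II, III and IV and of ATP synthase, 40 were higher on average in CROC+K+M, with a median log2 change of 1.80, against 1.70 for the complex I subunits. Without CROC+K+M replicate 1 there were 35 of 41 and a median of 0.64, against 0.79. All 41 were at their highest in CROC+K+M replicate 1. Whether the complex I subunits differ from these genes was not tested. Of 11 regulators of respiratory chain genes that could be tested, 7 (63.6%) were higher on average, a share near the 54.1% of all genes (median 0.46, or 0.08 without CROC+K+M replicate 1). Nrf1 itself was at 5.14 and 8.93 FPKM in CROC+K+M, against 8.62, 13.4 and 11.0 in CROC+K and 11.3 and 9.08 in FOC+K, a log2 change of -0.60 ± 0.35 (SE; adjusted p = 0.569), or -0.26 without that library. Esrra had the smallest unadjusted p of the list, at low levels of 1.01 and 1.12 FPKM in CROC+K+M. It was at 0.20, 0 and 0 in CROC+K and 0.12 and 0 in FOC+K. Its log2 change was 0.96 ± 0.33 (SE; adjusted p = 0.426), or 0.99 without CROC+K+M replicate 1.

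Embryos from vitrified and warmed oocytes (CROC+K) were then set against those from fresh oocytes (FOC+K). Of the subunits, 23 of 36 were higher on average in CROC+K, against 47.3% of all genes, and the median log2 change was 0.21, against -0.03 over all genes. No gene passed the adjusted threshold (0 of 12272, 0.0%), 269 genes (2.19%) had an unadjusted p under 0.05, and 0 of the 44 members tested did. Membrane arm accessory subunits had 15 of 19 higher and a median of 0.34, while core subunits had 2 of 7 higher and a median of -0.16. All CROC+K libraries lay above both FOC+K libraries in 10 subunits (27.8%), against 9.66% of all genes, and below both in 1 (2.78%), Ndufs7, against 9.47%. The 10 were Ndufa2, Ndufa4, Ndufa6, Ndufa7, Ndufa11, Ndufa13, Ndufb2, Ndufb6, Ndufb8 and Ndufs3. These counts use FPKM not divided by the library totals, which were 575457, 797689 and 814958 in CROC+K, against 585039 and 552356 in FOC+K. They were not taken with equal sums, so the lack of overlap may not hold on that scale. With equal sums the log2 change of Ndufa4 was 0.10, against 0.44 as deposited, and that of Ndufa13 was 0.48, against 0.81. With FPKM sums made equal, the median of the subunits was -0.13 and 15 of 36 were higher, while the median of all genes was -0.30.

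Ndufa13, which encodes a membrane arm subunit also known as GRIM19, illustrates the spread within CROC+K, at 58.2, 105.7 and 108.7 FPKM in CROC+K, against 45.2 and 54.0 in FOC+K. The groups did not overlap, and replicate 1 lay next to the FOC+K libraries. Its log2 change was 0.81 ± 0.46 (SE), and 1.10 without CROC+K replicate 1, where its adjusted p was 0.409. With the Rn45s level as a term it was 0.23. CROC+K replicate 1 lay above replicates 2 and 3 in 16 of 36 subunits (44.4%), against 39.2% of all genes, and below both in 14 (38.9%), against 35.9%, shares near those of all genes. By class, it was above both in 7 of 9 accessory subunits of the matrix arm (77.8%) and below both in 11 of 19 of the membrane arm (57.9%). Without CROC+K replicate 1, 6 of 44 members (Ndufa2, Ndufa13, Ndufab1, Ndufaf2 and Ndufaf4 higher, Ndufaf6 lower) had an unadjusted p under 0.05, a share near the 12.1% of all genes. When only the 3 high-Rn45s libraries were used, with replicate 1 alone for CROC+K, the median of the subunits was 0.32.

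The order of the subunits by level was also compared between libraries, as a description over 36 genes. CROC+K replicate 1 was most like FOC+K replicate 2 (Spearman 0.960), and CROC+K replicates 2 and 3 were most like each other (0.955). CROC+K+M replicate 2 was most like FOC+K replicate 2 (0.963), with 0.924, 0.886 and 0.842 to CROC+K replicates 1, 2 and 3. CROC+K+M replicate 1 had values of 0.539 to 0.701 with all others.

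Set against FOC+K, CROC+K+M had higher means in all 36 subunits (35 after quantile normalization or with equal FPKM sums, where the median of all genes was -0.08 and -0.44), against 52.9% of all genes. Their median log2 change was 1.91. This comparison shares its libraries with the preceding ones and is no independent result. In 29 subunits (80.6%) both CROC+K+M libraries were above both FOC+K libraries, against 21.3% of all genes. No gene passed the adjusted threshold (0 of 12272, 0.0%), 793 genes had an unadjusted p under 0.05, and 21 subunits (58.3%) were higher at that level, against 4.46% of all genes. Ndufa2 had a log2 change of 1.75 ± 0.32 (SE; adjusted p = 0.736) and Ndufa11 one of 1.71 ± 0.35, with the 2 smallest unadjusted p among the members. Without CROC+K+M replicate 1, 33 of 36 subunits were higher, with a median of 0.92. The share of all genes is not given for this count. Over all genes tested, the median deviation from each gene's mean was 0.0075 in CROC+K+M replicate 2, against -0.0174 and 0.0029 in FOC+K. Assembly factors had 5 of 7 higher and a median of 0.47, or 3 of 7 and -0.04 without that library, and the median was -0.12 with equal FPKM sums and -0.04 after quantile normalization. When replicate 2 of CROC+K+M was the one left out, 29 of 44 members passed the adjusted threshold against CROC+K, against 5.36% of all genes, and these calls rest on replicate 1 alone.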

How the data were processed

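The authors deposited 1 table of FPKM values per gene and library, with gene symbols and no coordinates. Its 7 columns match the sample titles, which gave the groups. Tools listed in the submitters' processing notes are R 3.3.2, STAR 2.5.2b, Cuffnorm and Cufflinks 2.2.1, and the listed genome build is mm9. Which of them made the table, the annotation, and any scaling between libraries are not stated in these sources, and depth in counts is unknown, which limits how precisely low genes are known. Per the labels' protocols, RNA had an integrity number above 7.0 and cDNA came from a low-input SMARTer kit with ScriptSeq libraries.

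FPKM were used as deposited, as log2(FPKM + 1), a scale that understates changes of low genes. The 1275 small RNA and ribosomal RNA precursor genes were left out, and 12272 genes with an FPKM of at least 1 in 2 or more libraries were tested. limma 3.58.1 with an intensity trend (R 4.3.3) fitted all 7 libraries by group, leaving 4 residual degrees of freedom. All tests are two-sided, with Benjamini-Hochberg adjustment within a comparison. Only the fit of CROC+K+M against CROC+K was also run on simulated data. Those data had independent normal noise and no library apart from its group, so they do not cover the setting of CROC+K+M replicate 1. List medians carry no test. P-values measure only the spread between these libraries.

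Members and lists were chosen with earlier results of these data known. Values in every library are given for core subunits (1 is counted and not reported here by name), for the members with the smallest and largest unadjusted p of each class, for members lower with melatonin with or without CROC+K+M replicate 1, and for members of uncertain class; further members, such as Ndufa7, Ndufb6, Ndufs4, Ndufs5, Ndufs6 and Ndufa13, were chosen after their values were seen. Coding lengths came from GENCODE M21 and promoters from RefSeq (GRCm38.p6), another build than the authors'. Alternatives were a pseudocount of 0.1, no filter, quantile normalization, equal FPKM sums, robust moderation, a replicate block, removal of a coding length trend, 1 Rn45s level (split at 1000 FPKM), that level as a term (chosen after seeing the data), and leaving out each library. Figures used Python 3.11.15 with matplotlib 3.10.9.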

Additional observations from a re-analysis of the deposited data

How the results depend on the processing

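The number of genes past the adjusted threshold stayed at 0 in all 3 comparisons under every alternative except without CROC+K+M replicate 2, where it was 658 against CROC+K and 546 against FOC+K (range 0 to 658 and 0 to 546 when leaving out 1 library). Leaving out 1 library gave subunit medians of 0.79 to 2.95 for CROC+K+M against CROC+K, 0.92 to 3.13 against FOC+K and 0.14 to 0.31 for CROC+K against FOC+K, assembly factor medians of 0.042 to 0.27, and 9 to 38 Nduf genes with an unadjusted p under 0.05. For CROC+K against FOC+K the subunit median was 0.062 with quantile normalization, -0.13 when FPKM sums were made equal, 0.095 with the coding length trend removed and 0.32 within 1 Rn45s level or with that level as a term. The assembly factor median for CROC+K+M against CROC+K was -0.24 with equal FPKM sums (all genes -0.14) and 0.27 within 1 Rn45s level or with that level as a term. The cause of these shifts was not tested. No Rn45s level holds both CROC+K+M and FOC+K libraries, so no value within a level was run for that comparison.

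With the replicate number as a block, 14 Nduf genes had an unadjusted p under 0.05, the subunit median was 1.82 and the assembly factor median was 0.19. Deviations of same-numbered libraries correlated at -0.005 between CROC+K+M and FOC+K, and at -0.025 and 0.03 between CROC+K+M and CROC+K. Between CROC+K and FOC+K the values were -0.457 and -0.273. In a group of 2 libraries the deviations mirror each other, so these values cannot show whether equal numbers share a day or batch.

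Single genes gave 458 values under alternatives, of which 19 turned direction, each in the melatonin comparison with CROC+K, and 19 passed the threshold, all without CROC+K+M replicate 2. Leaving out CROC+K+M replicate 1 gave the lowest and leaving out replicate 2 the highest change of Ndufa10 (-0.62 to 1.92), Ndufa8 (-0.64 to 3.98), Ndufaf3 (-0.69 to 4.03), Ndufb11 (-0.47 to 1.66), Ndufb4 (-0.16 to 4.61), Ndufb9 (-0.032 to 3.05) and Ndufs3 (-0.37 to 2.72). For Ndufaf2, Ndufaf5 and Ndufaf7 the changes ran from -0.30 to 0.19, -0.37 to 0.19 and -0.64 to 0.64 when 1 library was left out. Ndufaf2 was at 0.19 under the replicate block. Within 1 Rn45s level, or with that level as a term, Ndufaf5 was at 0.19 and Ndufaf7 at 0.27. Groups of 2 and 3 libraries, with 1 library apart in CROC+K+M and 1 in CROC+K, limit all comparisons.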
